A study of Mus musculus with 16 samples.

Results

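The 8 genes described here encode the proteins that take actin filaments apart and hand the monomers back for new growth. They are Cap1 and Cap2 (cyclase-associated proteins), Cfl1, Cfl2 and Dstn (cofilin 1, cofilin 2 and destrin, also called ADF), Wdr1 (the cofilin cofactor Aip1), and Twf1 and Twf2 (twinfilins). They were taken by symbol, with no limit set on any measured value, but with earlier results of these data known. They make up 8 of the 38087 gene rows of experiment A and 8 of the 54232 rows of experiment B. All 8 passed the filter on low values in both experiments.

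Actin filaments grow at the barbed end and lose ADP-actin at the pointed end. Cofilins and destrin bind and sever aged filaments, Wdr1 speeds that disassembly, twinfilins bind monomers and barbed ends, and cyclase-associated proteins strip cofilin from ADP-actin monomers, recharge them with ATP and speed loss from the pointed end. Cap2 and Cfl2 are the muscle-enriched members of their families, and both are needed in mouse striated muscle for normal sarcomeric actin.

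RNA was measured by sequencing in mouse hearts of the C57BL/6 strain. Experiment A compared 86-week-old females lacking CAP2 in the whole body (CAP2 -/-, n = 3) with wild-type females of the same age (WT, n = 3). Experiment B compared 13-week-old Loxp/Loxp mice carrying Myh6-Cre (Cre+, n = 4, of which 3 were female and 1 male) with Loxp/Loxp mice without Cre (loxP, n = 5, of which 3 were female and 2 male). Myh6-Cre acts in cardiomyocytes, so other heart cells keep Cap2. The Cre+ hearts alone carry Cre, so effects of Cre and of Cap2 loss cannot be told apart, and the loxP hearts carry the floxed alleles too. The question put to the 8 genes was whether the others stood at another level where Cap2 was missing.

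Experiment A held 11476400 to 15927300 estimated counts per library in CAP2 -/- hearts and 10750200 to 27440500 in WT hearts. Its values are given below as CPM. For levels of genes, also per kilobase, each count is relative to the TMM-scaled total of its library. For exon blocks and for sums of markers it is relative to the plain total. Experiment B held the authors' normalized read counts. Their nuclear genes summed to 3960480 to 4044520 per library in Cre+ hearts and 3815980 to 3895700 in loxP hearts. The depth of experiment B is unknown, and mitochondrially encoded genes took 23.0 to 52.7% of the values in Cre+ hearts against 30.4 to 69.5% in loxP hearts. One library stood apart: loxP replicate 4 correlated with the rest of its group at a mean r of 0.827, against 0.901 to 0.909 for the other 4 loxP hearts. The values of the 8 genes in experiment B, and those of the other genes called there, are therefore also given without it. The Cre+ hearts differed among themselves in atrial markers, which were low in Cre+ replicate 1 and far higher in the other 3; the values are given with the markers. Calls are at an adjusted p under 0.05, from edgeR's quasi-likelihood test in experiment A and from limma in experiment B, with Benjamini-Hochberg adjustment over all genes tested.

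Cap2 fell in both models, to a fold of 0.0573 over WT in the whole-body knockout and of 0.215 over loxP in the cardiomyocyte deletion. Cap1, the other family member, was not called in either. Destrin rose 2.13-fold in CAP2 -/- hearts, and the other 5 genes were not called there. In Cre+ hearts 6 of the 8 fold changes were above 1, but Cap2 was the only one of the 8 called.

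In CAP2 -/- hearts 2 of the 8 genes were called, 1 higher (Dstn) and 1 lower (Cap2). Over all 16297 genes tested in experiment A, 1.35% were called, 0.841% higher and 0.509% lower. The groups did not overlap for 3 of the 8 (Cap2, Cfl2 and Dstn), against a background of 15.6% of genes, 7.6% higher and 8% lower. DESeq2 also called 2 of the 8, against 402 of all 16294 genes to which it gave an adjusted p. By edgeR's test 4 of the 8 had an unadjusted p under 0.05. The share of all genes under that limit was not computed in either experiment. Counts of unadjusted p, here and below, therefore have no background beside them. In Cre+ hearts 1 of the 8 genes was called, Cap2, against 1.88% of the 12141 genes tested, 0.931% lower and 0.947% higher. Cap2 and Cfl1 were the 2 of 8 whose groups did not overlap, against a background of 8.66%, 3.87% higher and 4.79% lower, and 4 of 8 had an unadjusted p under 0.05 by limma. The median log2 fold change over all genes was 0.0057 for CAP2 -/- over WT and -0.12 for Cre+ over loxP. Over the 8 genes it was 0.16 for CAP2 -/- over WT and 0.35 for Cre+ over loxP. Cap2 was deleted by design, so its fall does not bear on the other genes. Without Cap2, 1 of 7 genes was called in CAP2 -/- hearts and 0 of 7 in Cre+ hearts. The groups did not overlap for 2 of the 7 in experiment A and 1 of the 7 in experiment B. The median log2 fold changes of the 7 were 0.25 and 0.37.

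**Figure D1:**
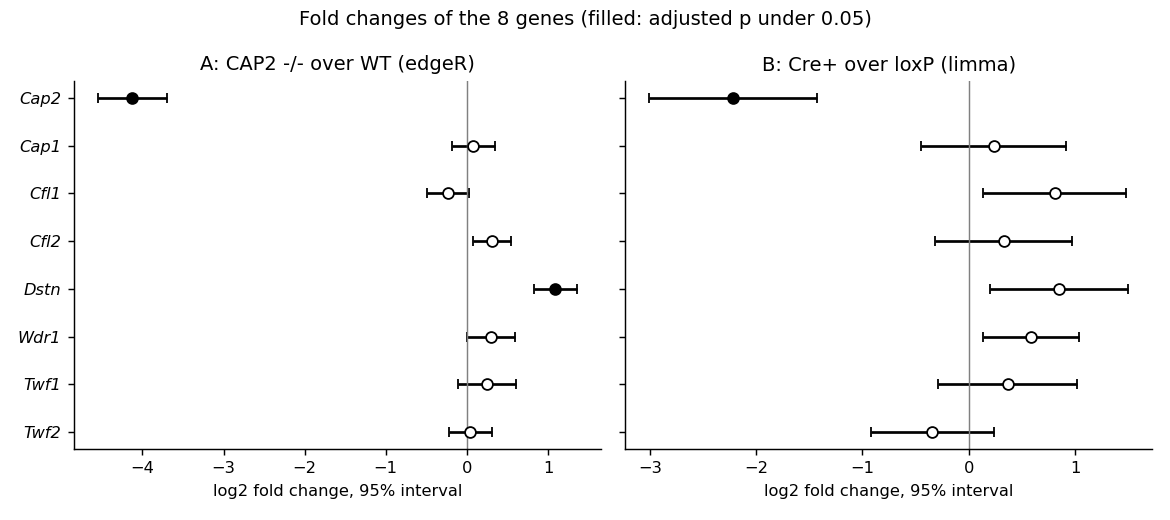
Log2 fold change of each of the 8 genes with its 95% interval, CAP2 -/- over WT by edgeR on the left and Cre+ over loxP by limma on the right. Filled points were called; Cap2 was called in both experiments, Dstn only in experiment A at this threshold, and the intervals of experiment B are the wider ones.

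Cap2, the muscle cyclase-associated protein and the gene deleted in the study, lies at chr13:46501848-46650281 on the plus strand (mm10). It stood at 8.34, 16.2 and 12.0 CPM in CAP2 -/- hearts, against 197, 217 and 228 CPM in WT hearts. The groups were far apart, and every CAP2 -/- library still held Cap2 reads. The fold change was 0.0573, a log2 fold change of -4.13 ± 0.20 (SE), with an adjusted p of 1.00e-07 by edgeR. In the authors' deposited table of comparisons the log2 fold change of Cap2 was also -4.13, with an adjusted p of 7.49e-107; that table gave adjusted values for 17250 genes and called 2.61% of them.

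In the cardiomyocyte deletion Cap2 stood at 33, 60, 80 and 87 normalized counts in Cre+ hearts, against 342, 186, 878 and 381 in loxP replicates 1, 3, 4 and 5. LoxP replicate 2, the lowest of its group, stood 1.91-fold above the highest Cre+ library, so the groups did not overlap, and loxP replicate 4 was the highest of all. The log2 fold change was -2.22 ± 0.36 (SE) with an adjusted p of 0.0161 by limma. Without loxP replicate 4 it was -2.03 with an adjusted p of 0.00750. The call did not hold without Cre+ replicate 4 (-1.998, adjusted p 0.0922) or without loxP replicate 1 (-2.05, adjusted p 0.0687). Cre+ replicate 4 was the only male Cre+ heart. With females only the log2 fold change was also -1.998, and there Cap2 was called (adjusted p 0.0336 by limma). In heart tissue fewer cells of a type and less RNA per cell cannot be told apart, and this holds for every gene below.

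**Figure D2:**
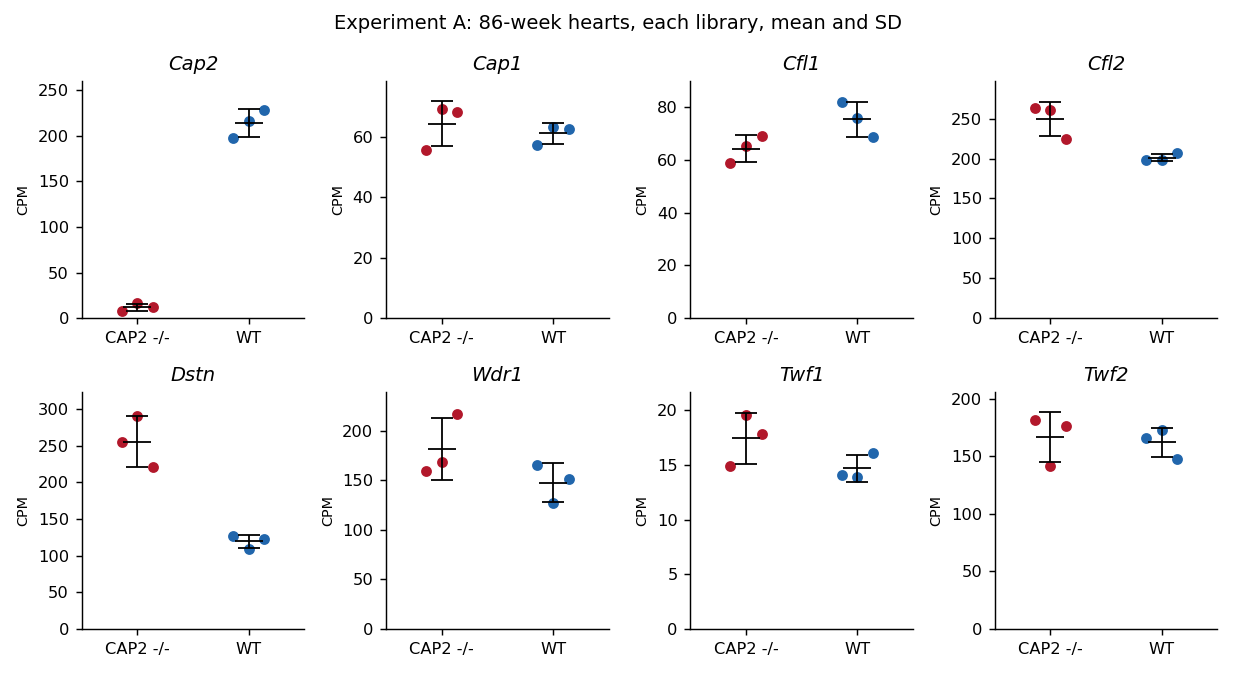
Level of each gene in experiment A in TMM-scaled CPM, 1 point per library, CAP2 -/- left of WT, with mean and SD (n = 3 each). Cap2 lies far below WT, Dstn lies above WT with no overlap, Cfl2 lies above WT by a narrow margin, and the other 5 genes overlap.

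The remaining Cap2 reads were spread along the whole gene. The exons of Cap2 merge into 14 blocks, of which 13 had at least 50 reads in WT hearts. In all 13 the CAP2 -/- libraries lay below the WT libraries. The mean CPM in CAP2 -/- hearts was 1.40 to 7.58% of that in WT hearts over the 13 blocks, with a median of 5.06%. Cap2 blocks together held 91.9, 225 and 189 reads in the CAP2 -/- libraries, against 5457, 2346.5 and 3891 reads in the WT libraries. The last block, which holds the end of the coding sequence and the 3′ untranslated region, took 39.0, 39.1 and 29.8% of those reads in CAP2 -/- hearts and 32.9, 38.2 and 36.6% in WT hearts, so the groups overlapped in where along the gene the reads fell.

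The ends of that range lie in neighbouring exons, blocks 5 and 6. Together with block 7 they form a cassette of 336 bases (112 codons, in frame) that 1 coding transcript of Cap2 in GENCODE M21 leaves out. The 3 exons are shown as read from the GENCODE transcript, in transcript sense on the plus strand of chromosome 13. The first starts at position 46609596 and ends at 46609739, the second spans 46610064 to 46610149, and the third spans 46615250 to 46615355.
Cap2 exon block 5: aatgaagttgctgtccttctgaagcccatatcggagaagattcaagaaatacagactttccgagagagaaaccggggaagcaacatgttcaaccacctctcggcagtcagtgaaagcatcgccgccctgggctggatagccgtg
Cap2 exon block 6: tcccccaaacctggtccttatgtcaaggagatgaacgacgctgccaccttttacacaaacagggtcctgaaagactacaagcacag
Cap2 exon block 7: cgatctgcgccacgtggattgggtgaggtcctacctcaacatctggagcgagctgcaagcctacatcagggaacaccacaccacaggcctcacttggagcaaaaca

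Block 5 had 4.97, 25.6 and 29.0 reads in CAP2 -/- hearts, against 506, 163 and 339 reads in WT hearts. Pooled over libraries this was 7.90% of the WT level relative to library size (exact 95% interval 5.98 to 10.3%). Block 6 had 0, 3 and 0 reads in CAP2 -/- hearts, against 65.1, 86.1 and 83.0 reads in WT hearts, or 1.70% of WT (0.348 to 5.03%). These intervals cover counting error only; they did not overlap, but both blocks were picked as the extremes after their values were seen. Over the whole cassette the read density, as a share of that of the 8 inner exons common to the coding transcripts, was 74.4, 97.4 and 106.7% in CAP2 -/- hearts and 82.0, 98.0 and 88.2% in WT hearts. The groups overlapped, so no difference in use of the cassette was detectable at this depth.

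**Figure D3:**
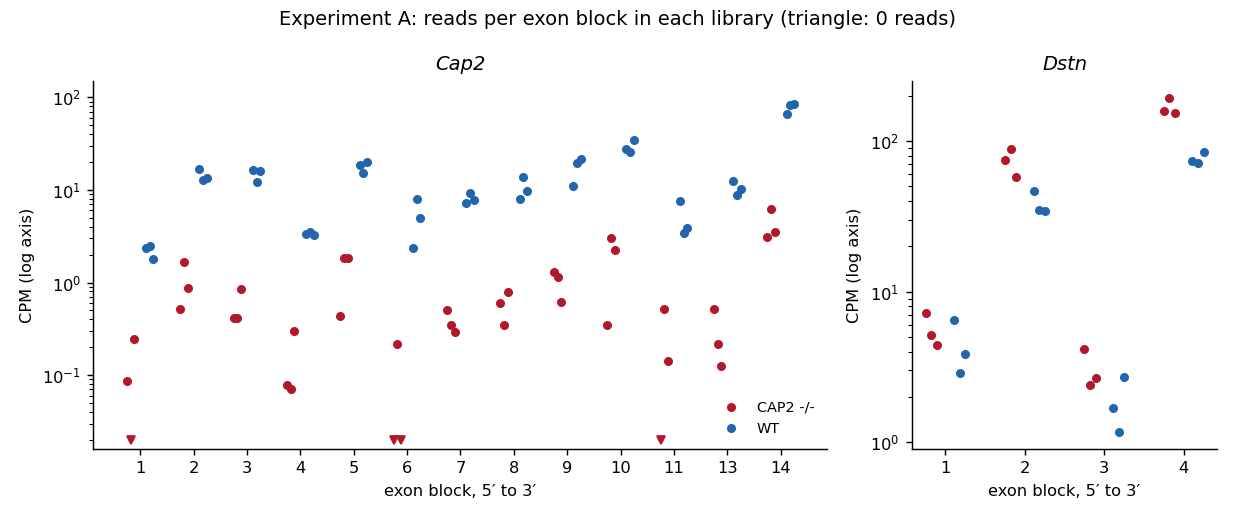
Reads per exon block in CPM on a log axis in experiment A for Cap2 (the 13 blocks with at least 50 WT reads) and Dstn (4 blocks), 1 point per library, CAP2 -/- left of WT, with triangles for 0 reads. Every CAP2 -/- point of Cap2 lies below the WT points of its block, from block 1 to block 14, while for Dstn the groups separate in blocks 2 and 4, which hold most reads.

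Experiment A also lists 1 value between 0 and 1 for each transcript, whose definition is not given in the sources used here. Summed over the transcripts of Cap2, these values came to 0.420, 0.686 and 0.549 in CAP2 -/- hearts, against 0.945, 0.962 and 0.947 in WT hearts. The sums for the other 7 genes lay between 0.883 and 0.991 in every library, and the median over 2667 genes with a mean above 1000 counts was 0.958 to 0.962. The CAP2 -/- sums of Cap2 lay below the lowest sum of the other 7 genes. Those Cap2 sums rest on 91.9 to 225 reads per library, and genes of similar depth were not compared. The transcript with the cassette (ENSMUST00000021802) had values of 0.234, 0.507 and 0.461 in CAP2 -/- hearts and 0.654, 0.719 and 0.669 in WT hearts. The transcript without it (ENSMUST00000119341) had 0.181, 0.180 and 0.0880 in CAP2 -/- hearts and 0.291, 0.243 and 0.278 in WT hearts, so both were listed lower in every CAP2 -/- library.

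Cap1, the cyclase-associated protein of most non-muscle cells, lies at chr4:122859047-122886056 on the minus strand. It had 55.6, 69.0 and 68.1 CPM in CAP2 -/- hearts, against 57.1, 63.3 and 62.6 CPM in WT hearts. The groups overlapped, with a log2 fold change of 0.08 ± 0.12 (SE) and an adjusted p of 0.893 by edgeR. The 95% interval of the fold was 0.879 to 1.27, so a rise of more than 26.7% lies outside it. In Cre+ hearts Cap1 had 259, 217, 422 and 356 normalized counts, against 174, 231, 360, 208 and 443 in loxP hearts. Here too the groups overlapped, and the interval was wider, with a fold of 1.18 (95% interval 0.734 to 1.89) and an adjusted p of 0.681 by limma. Without loxP replicate 4 the log2 fold change was 0.10 with an adjusted p of 0.860.

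Per kilobase of the exons that the deposited table counts, Cap2 was the more abundant of the pair in WT hearts by a ratio of 3.69. With the exon lengths of GENCODE M21, an alternative chosen after seeing the data, the ratio was 2.95. The pair summed to 22.1 ± 3.22 CPM per kilobase in CAP2 -/- hearts and 81.9 ± 5.59 in WT hearts (SD, n = 3 each). Cap1 made up 80.2 to 86.4% of that sum in CAP2 -/- hearts and 20.7 to 21.7% in WT hearts. The mean level of Cap2 was lower by 60.8 CPM per kilobase in CAP2 -/- hearts than in WT hearts. The largest gain of Cap1 within its 95% interval was 4.66 CPM per kilobase, or 7.67% of that loss.

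Dstn, the destrin or actin depolymerizing factor gene, lies at chr2:143915320-143943324 on the plus strand and was the 1 member called higher in CAP2 -/- hearts. It had 255, 291 and 221 CPM in CAP2 -/- hearts, against 127, 110 and 123 CPM in WT hearts. The lowest CAP2 -/- library was well above the highest WT library. The mean was 256 ± 35.1 CPM in CAP2 -/- hearts and 119.8 ± 9.07 CPM in WT hearts (SD, n = 3 each), a fold of 2.13 (95% interval 1.77 to 2.56) with an adjusted p of 0.000155 by edgeR. In the authors' deposited table its log2 fold change was 1.09 with an adjusted p of 1.28e-12. The fitted log2 fold change ranged from 0.99 to 1.19 over the alternatives, all of them called.

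The rise of Dstn was seen in the exons that hold most of its reads. Of its 4 exon blocks the ratio of CAP2 -/- to WT was 1.27 in the first, 1.91 in the second, 1.65 in the third and 2.21 in the last. All CAP2 -/- libraries were above all WT libraries in 2 of the 4, the second and the last. The first and the third had few reads, and there the groups overlapped.

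In Cre+ hearts Dstn had 703, 941, 1505 and 1493 normalized counts, against 371, 519, 786, 740 and 1091 in loxP hearts. The groups overlapped, with 2 Cre+ libraries above all loxP libraries. The mean was 1160.5 ± 403 in Cre+ hearts (SD, n = 4) and 701 ± 275 in loxP hearts (SD, n = 5). The fitted fold was 1.80, a log2 fold change of 0.85 (95% interval 0.20 to 1.504), with an unadjusted p of 0.0150 and an adjusted p of 0.142 by limma. Without loxP replicate 4 the log2 fold change was 0.79 with an adjusted p of 0.133. With the mitochondrial share of each library added to the fit it was 0.83 with an adjusted p of 0.333. The difference between the experiments was not tested, since their values are in different units and they differ in age, sex and library kit.

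The promoters of the 2 called genes are shown so that the one that rose in CAP2 -/- hearts can be set beside that of the deleted gene. Sequences are from RefSeq on GRCm38.p6, from 250 bases before the transcription start to 50 after it, in lower case with the motif GGGCGG and its reverse complement CCGCCC in capitals. The Dstn window spans 143915081 to 143915380 on chromosome 2 and the Cap2 window 46501653 to 46501952 on chromosome 13, both on the plus strand.
Dstn promoter: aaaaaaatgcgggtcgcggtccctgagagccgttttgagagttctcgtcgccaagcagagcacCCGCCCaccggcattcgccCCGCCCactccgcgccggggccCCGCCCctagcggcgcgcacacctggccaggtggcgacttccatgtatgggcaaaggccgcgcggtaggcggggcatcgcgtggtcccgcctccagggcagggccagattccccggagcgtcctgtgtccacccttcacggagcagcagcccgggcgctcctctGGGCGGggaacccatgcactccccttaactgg
Cap2 promoter: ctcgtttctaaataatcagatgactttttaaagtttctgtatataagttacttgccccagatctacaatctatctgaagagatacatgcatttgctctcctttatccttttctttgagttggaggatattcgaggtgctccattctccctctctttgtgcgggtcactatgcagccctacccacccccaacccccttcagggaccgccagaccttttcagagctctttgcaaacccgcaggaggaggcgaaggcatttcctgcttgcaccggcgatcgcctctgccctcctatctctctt

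The Dstn window was 69.7% G or C with 31 CpG pairs, and the Cap2 window was 48.3% with 9. Dstn held GGGCGG once on the forward strand and 3 times on the reverse strand, and Cap2 held none. Of 27025 mouse promoters of the same length, 35.9% held this motif on either strand, as did 5 of the 7 members with a promoter (Dstn, Wdr1, Cfl2, Twf1 and Cfl1). The CArG box, the serum response factor motif, was searched on both strands and was in 1.57% of promoters. It was in 0 of the 7, which says only that these letters are not in these windows.

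Cfl2, the muscle cofilin, lies at chr12:54858809-54862877 on the minus strand. It had 263, 261 and 225 CPM in CAP2 -/- hearts, against 198, 199 and 206 CPM in WT hearts. Every CAP2 -/- library was above every WT library. The fold was 1.24 (95% interval 1.06 to 1.46), with an unadjusted p of 0.0123 and an adjusted p of 0.274 by edgeR, so it was not called among the genes tested. In Cre+ hearts Cfl2 had 951, 1749, 1318 and 1207 normalized counts, against 944, 778, 870, 2043 and 1024 in loxP hearts. The value of 2043 came from loxP replicate 4 and was above every Cre+ library. The log2 fold change was 0.33 (95% interval -0.31 to 0.97) with an adjusted p of 0.525 by limma. Without loxP replicate 4 it was 0.50 with an adjusted p of 0.184, and with the mitochondrial share in the fit it was 0.03 with an adjusted p of 0.976.

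Cfl1, the non-muscle cofilin, lies at chr19:5490455-5495201 on the plus strand. It had 58.7, 65.3 and 68.9 CPM in CAP2 -/- hearts, against 81.9, 75.8 and 68.6 CPM in WT hearts. The groups overlapped by a narrow margin, with a log2 fold change of -0.23 (95% interval -0.49 to 0.03) and an adjusted p of 0.552 by edgeR. In Cre+ hearts it had 981, 971, 1727 and 1331 normalized counts, against 524, 891, 880, 420 and 883 in loxP hearts. Every Cre+ library was above every loxP library. The fold was 1.75, a log2 fold change of 0.81 (95% interval 0.13 to 1.48), with an unadjusted p of 0.0229 and an adjusted p of 0.165 by limma. Without loxP replicate 4, which held the lowest value, the log2 fold change was 0.65 with an adjusted p of 0.151. The fitted values of Cfl1 lie on opposite sides of 0 in the experiments, and neither was called.

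**Figure D4:**
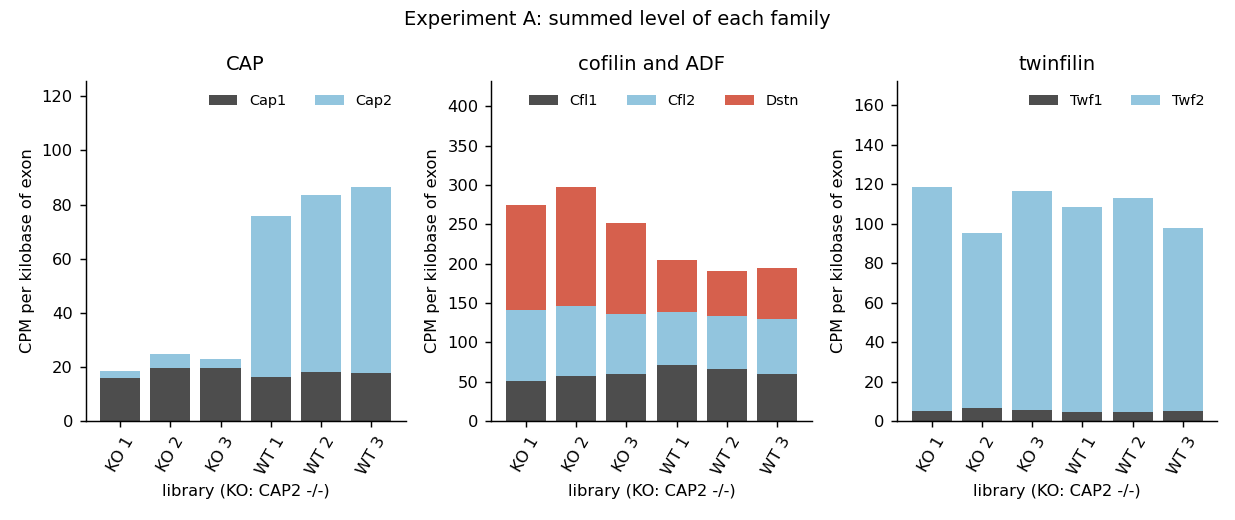
Summed level of each family per library in experiment A, in CPM per kilobase of exon, CAP2 -/- libraries left of WT libraries, each bar split by gene. The cyclase-associated pair is lower in every CAP2 -/- library, the cofilin and destrin sum is higher (252 to 297.9 in CAP2 -/- and 191 to 205 in WT), and the twinfilin sums overlap.

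Per kilobase of exon, the cofilins and destrin summed to 275 ± 23.0 CPM per kilobase in CAP2 -/- hearts and 197 ± 7.43 in WT hearts (SD, n = 3 each). Most of the difference was in Dstn, which stood at 133.7 ± 18.4 in CAP2 -/- hearts and 62.7 ± 4.74 in WT hearts. Dstn made up 45.8 to 51.1% of the family sum in CAP2 -/- hearts and 30.0 to 33.1% in WT hearts. The mean share of Cfl1 was 20.5% in CAP2 -/- hearts against 33.4% in WT hearts, and that of Cfl2 was 30.9% in CAP2 -/- hearts against 34.8% in WT hearts. In WT hearts Cfl2 stood at 67.3 to 70.2, Cfl1 at 59.7 to 71.4 and Dstn at 57.4 to 66.5 CPM per kilobase of the exons that the deposited table counts, which for Cfl1 come to 1.148 kilobases. GENCODE gives Cfl1 2.844 kilobases of exon. With GENCODE lengths Cfl1 stood at 26.5 ± 2.35 CPM per kilobase in WT hearts, below Cfl2 at 61.5 ± 1.43 and Dstn at 62.7 ± 4.74 (SD, n = 3), so how the level of Cfl1 compares with the other two rests on the length used. The share of Dstn was the higher one in CAP2 -/- hearts with these lengths too, at 55.3 to 59.6% against 39.6 to 42.7% in WT hearts.

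Wdr1, which encodes the cofactor that speeds cofilin-driven disassembly, lies at chr5:38526813-38563221 on the minus strand. It had 159, 168.4 and 217 CPM in CAP2 -/- hearts, against 165.4, 127 and 151 CPM in WT hearts. The groups overlapped, with a log2 fold change of 0.30 ± 0.14 (SE), an unadjusted p of 0.0488 and an adjusted p of 0.475 by edgeR. In Cre+ hearts it had 511, 615, 726 and 825 normalized counts, against 352, 445, 451, 603 and 466 in loxP hearts. Here 3 of 4 Cre+ libraries were above every loxP library. The fold was 1.501, a log2 fold change of 0.59 ± 0.20 (SE), with an unadjusted p of 0.0151 and an adjusted p of 0.142 by limma. Without loxP replicate 4 it was 0.63 with an adjusted p of 0.0851.

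Twf2, the twinfilin abundant in mouse heart and skeletal muscle, lies at chr9:106203108-106215389 on the plus strand. It had 182, 142 and 177 CPM in CAP2 -/- hearts, against 165.7, 173 and 148 CPM in WT hearts. The groups overlapped fully, with a log2 fold change of 0.04 ± 0.12 (SE) and an adjusted p of 0.949 by edgeR; its sign changed without CAP2 -/- replicate 1 (-0.03). In Cre+ hearts it had 656, 714, 528 and 641 normalized counts, against 1310, 640, 580, 878 and 796 in loxP hearts. The groups overlapped, with loxP replicate 1 the highest, a log2 fold change of -0.34 (95% interval -0.92 to 0.24) and an adjusted p of 0.463 by limma. Leaving out loxP replicate 4 gave -0.32 with an adjusted p of 0.474.

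Twf1, the broadly expressed twinfilin, lies at chr15:94577951-94589889 on the minus strand. It had 14.95, 19.6 and 17.8 CPM in CAP2 -/- hearts, against 14.1, 13.9 and 16.1 CPM in WT hearts. The log2 fold change was 0.25 (95% interval -0.11 to 0.61) with an adjusted p of 0.684 by edgeR. In Cre+ hearts it had 177, 180, 265 and 144 normalized counts, against 109, 178, 224, 70 and 152 in loxP hearts, a log2 fold change of 0.37 with an adjusted p of 0.486 by limma. It was 0.22 when loxP replicate 4 was left out, with an adjusted p of 0.647. Both comparisons overlapped. Twf2 made up a mean of 94.7% of the twinfilin sum per kilobase in CAP2 -/- hearts and 95.4% in WT hearts.

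**Figure D5:**
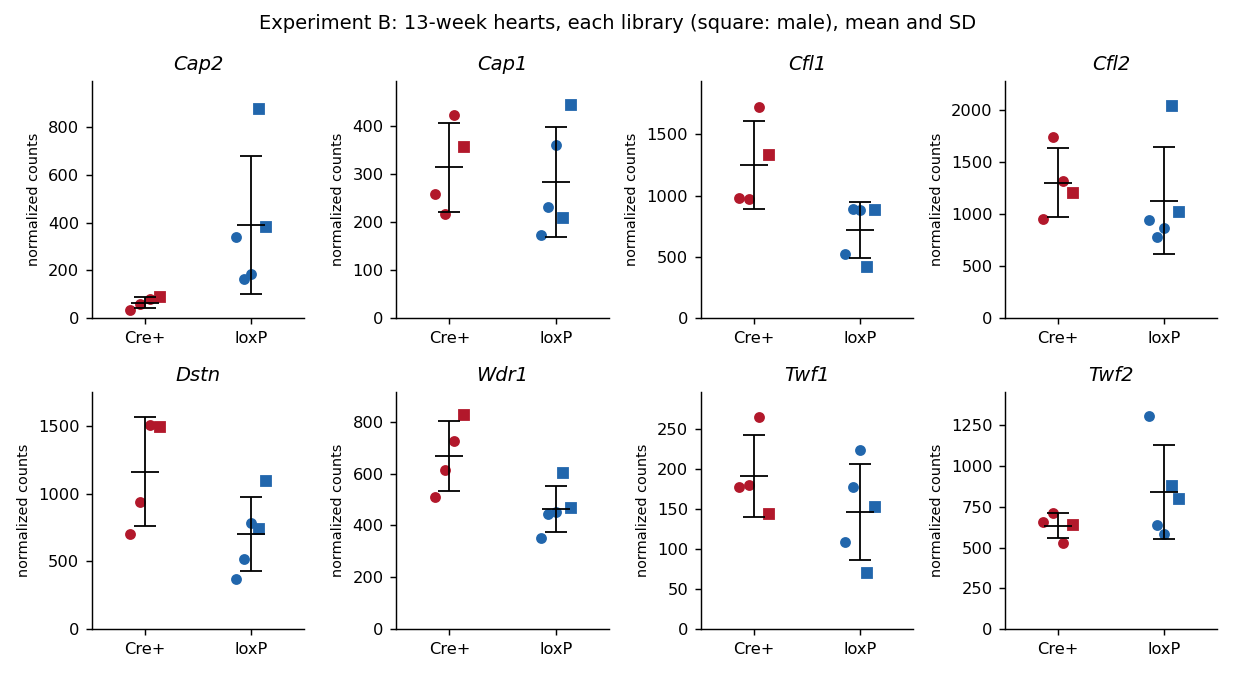
Level of each gene in experiment B in normalized counts, 1 point per library, Cre+ left of loxP, squares for males, with mean and SD (n = 4 and n = 5). Cap2 is lower and Cfl1 higher in Cre+ with no overlap, the other 6 genes overlap, and loxP replicate 4 holds the highest values of Cap2 and Cfl2.

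Ranked by level per kilobase of the exons that the deposited table counts, in WT hearts, Twf2 came first at 101.7 ± 8.10 CPM per kilobase, followed by Cfl2 at 68.4 ± 1.58, Cfl1 at 65.7 ± 5.83, Cap2 at 64.5 ± 4.71, Dstn at 62.7 ± 4.74, Wdr1 at 50.1 ± 6.58, Cap1 at 17.5 ± 0.966 and Twf1 at 4.81 ± 0.401 (SD, n = 3). The ranges of neighbours from Cfl2 to Dstn overlapped, so their order is not resolved. With GENCODE exon lengths the order was Twf2 at 69.9 ± 5.57, Dstn at 62.7 ± 4.74, Cfl2 at 61.5 ± 1.43, Cap2 at 51.5 ± 3.76, Cfl1 at 26.5 ± 2.35, Cap1 at 17.5 ± 0.966, Wdr1 at 16.6 ± 2.18 and Twf1 at 4.81 ± 0.401 CPM per kilobase. Twf2 came first and Twf1 last with either length, and of the places between them all but that of Cap2 depended on it. In CAP2 -/- hearts Dstn came first at 133.7 ± 18.4 and Cap2 last at 3.66 ± 1.18 CPM per kilobase of the exons in the deposited table, with Twf1 at 5.71 ± 0.767 next above it. Their places at the ends of the order there were the same with GENCODE lengths. Exons of Cap1, Cap2, Cfl1, Cfl2, Wdr1 and Twf1 overlap genes on the opposite strand, and whether counting used the strand is not given in the sources used here. No gene overlaps the exons of Dstn or Twf2.

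Of 58 other genes of the actin turnover pathway, 57 were tested in experiment A. None was called by edgeR, 6 had an unadjusted p under 0.05, DESeq2 called 2 (Svil and Tmod4), and the median log2 fold change was 0.05. In experiment B 55 were tested, 1 was called higher (Dbn1) and 1 lower (Tmod4), with a median log2 fold change of 0.04. There 14 of the 55 had an unadjusted p under 0.05 by limma. The groups did not overlap for 9 of the 57 in experiment A, against 15.6% of all genes. In experiment B they did not overlap for 9 of the 55, against 8.66% of all genes. The kinases and phosphatases that switch cofilin off and on had 0 of 12 called in experiment A and 0 of 11 in experiment B, with 0 at an unadjusted p under 0.05 in either. Among them the kinase gene Limk1 had a log2 fold change of -0.31 (adjusted p 0.733) in experiment A and -0.06 (0.930) in experiment B. Another kinase gene, Tesk1, had -0.19 (0.707) in experiment A and -0.30 (0.631) in experiment B. Pak1, whose product activates LIM kinases, had -0.08 (0.967) in experiment A and 0.71 (0.246) in experiment B. For Ssh2, a slingshot phosphatase gene, these were -0.07 (0.897) in experiment A and -0.51 (0.235) in experiment B.

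Of the ADF-homology and debranching genes, 0 of 5 were called in experiment A and 1 of 5 in experiment B. Dbn1, which encodes the filament-binding protein drebrin, rose in Cre+ hearts to 191, 273, 253 and 235 normalized counts, against 65, 57, 79, 18 and 98 in loxP hearts. The groups did not overlap, and its log2 fold change was 2.01 ± 0.41 (SE) with an adjusted p of 0.0384 by limma. Leaving out loxP replicate 4, the lowest, gave 1.68 with an adjusted p of 0.00339. In CAP2 -/- hearts its log2 fold change was 0.52 with an adjusted p of 0.346 by edgeR. Gmfg, a debranching factor of blood cells, had -1.04 (adjusted p 0.607) in experiment A and 1.04 (0.269) in experiment B. Cotl1, which encodes coactosin-like protein, had 0.13 (0.875) in experiment A and 1.12 (0.219) in experiment B.

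Of the capping and severing genes, 0 of 16 were called in experiment A by edgeR and 1 of 16 in experiment B. Tmod4, a pointed-end capping protein of skeletal muscle, fell in Cre+ hearts to 51, 27, 19 and 63 normalized counts, against 187, 142, 82, 123 and 118 in loxP hearts. The groups did not overlap, with a log2 fold change of -1.73 ± 0.37 (SE) and an adjusted p of 0.0418 by limma, or -1.79 with an adjusted p of 0.0316 when loxP replicate 4 was left out. The calls of Dbn1 and Tmod4 were each lost when any one of Cre+ replicates 2, 3 and 4 or loxP replicates 1, 2 and 3 was left out, with adjusted p over all left-out libraries of 0.00339 to 0.172 for Dbn1 and 0.0249 to 0.130 for Tmod4. In CAP2 -/- hearts it stood at 20.0 ± 2.21 CPM against 30.0 ± 2.59 CPM in WT hearts (SD, n = 3 each), with no overlap and an adjusted p of 0.0620 by edgeR. Svil, the gelsolin-family gene of supervillin, had a log2 fold change of 0.44 (adjusted p 0.0556) in experiment A and -0.37 (0.563) in experiment B. Capg, which encodes a gelsolin-like barbed-end capper, had 0.40 (0.439) in experiment A and 1.47 (0.0823) in experiment B.

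None of 7 coronins was called in experiment A and none of 6 in experiment B, where 2 had an unadjusted p under 0.05 against 0 in experiment A. Coro7 had log2 fold changes of -0.36 (adjusted p 0.551) in experiment A and -0.47 (0.330) in experiment B. Coro1a, of leukocytes, had 0.29 (0.677) in experiment A and 1.42 (0.140) in experiment B, and Coro6 had 0.03 (0.966) in experiment A and -1.03 (0.198) in experiment B. Of 17 monomer-binding and nucleation genes none was called in either experiment, with 1 at an unadjusted p under 0.05 in experiment A and 5 in experiment B. In Cre+ hearts 14 of the 17 had log2 fold changes above 0, with a median of 0.48 against -0.12 over all genes. Arpc1b, an Arp2/3 subunit gene, had 0.46 (0.166) in experiment A and 0.75 (0.335) in experiment B, and Arpc3, another, had 0.23 (0.645) in experiment A and 0.73 (0.119) in experiment B. Tmsb4x, the thymosin that sequesters monomers, had 0.19 (0.620) in experiment A and 0.54 (0.498) in experiment B. Pfn1, the profilin that delivers monomers to growing ends, had -0.11 (0.846) in experiment A and 0.82 (0.102) in experiment B.

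Markers of the cell types of the heart were read beside these values, as the sum of each list per library. In experiment A, fibroblast markers summed to 2757 to 3068 CPM in CAP2 -/- hearts and 2540.5 to 2885 CPM in WT hearts. Gsn, the gelsolin gene, held the largest part of that sum, at a mean of 1826 CPM in CAP2 -/- hearts and 1792 CPM in WT hearts. Endothelial markers summed to 1397 to 1531 CPM in CAP2 -/- hearts and 1405 to 1465 CPM in WT hearts, and macrophage markers to 239 to 280 CPM in CAP2 -/- hearts and 238 to 275 CPM in WT hearts. Smooth muscle and pericyte markers summed to 4218 to 4694 CPM in CAP2 -/- hearts and 4243 to 4474 CPM in WT hearts. All of these ranges overlapped, but not those of every single marker. Groups did not overlap for 4 of 7 endothelial markers, with Tie1 (log2 fold change -0.52) and Cdh5 (-0.06) lower, Fabp4 (0.33) and Kdr (0.19) higher. The same held for 4 of 10 smooth muscle and pericyte markers, with Abcc9 (-0.36) lower, Cnn1 (0.75), Smtn (0.42) and Des (0.19) higher. It also held for 1 of 8 fibroblast markers (Dcn, 0.49) and 0 of 7 macrophage markers, against 15.6% of all genes. Cardiomyocyte markers summed to 70074 to 81551 CPM in CAP2 -/- hearts and 79881 to 86581 CPM in WT hearts. For 2 of those 8 markers, Ryr2 (log2 fold change -0.42) and Tnni3 (-0.27), the groups did not overlap. Atrial markers summed to 42.5 to 51.4 CPM in CAP2 -/- hearts and 48.6 to 52.1 CPM in WT hearts. Stard10 held the largest part of the atrial sum, at a mean of 25.3 CPM in CAP2 -/- hearts against 32.9 CPM in WT hearts. Myl4 was higher in CAP2 -/- hearts (10.6 against 6.28 CPM), as was Bmp10 (1.81 against 0.176 CPM). For these 3 the groups did not overlap. Myl7 stood at 1.35 CPM in CAP2 -/- hearts and 1.22 CPM in WT hearts, with overlap. Erythroid markers summed to 2474 to 18509 CPM in CAP2 -/- hearts and 4408 to 7968 CPM in WT hearts, and lymphocyte markers to 2.63 to 4.74 CPM in CAP2 -/- hearts and 3.52 to 4.10 CPM in WT hearts. Of these lists 0 of 8 cardiomyocyte, 0 of 10 smooth muscle and pericyte, 0 of 8 fibroblast, 0 of 7 endothelial, 0 of 7 macrophage, 0 of 1 lymphocyte, 0 of 5 erythroid and 0 of 5 atrial markers tested were called by edgeR. An unadjusted p under 0.05 was found for 2 cardiomyocyte, 4 smooth muscle, 1 fibroblast, 2 endothelial and 3 atrial markers, and DESeq2 called 1 cardiomyocyte, 1 endothelial and 2 atrial markers. Of 6 skeletal muscle markers tested 1 was called, Casq1, the skeletal calsequestrin, with a log2 fold change of 2.93 and an adjusted p of 0.00150. In that list 3 of 6 had an unadjusted p under 0.05, DESeq2 called 2, and 6 of 6 log2 fold changes were above 0, with a median of 0.70. The skeletal muscle markers summed to 5696, 4391 and 4856 CPM in CAP2 -/- hearts and 3130.5, 4700.5 and 4014.5 CPM in WT hearts, with overlap. Most of that sum was Ckm, at a mean of 5037 CPM in CAP2 -/- hearts and 3877 CPM in WT hearts. Casq1 stood at a mean of 24.0 CPM in CAP2 -/- hearts and 2.96 CPM in WT hearts, with no overlap. The part of these lists in the rise of Dstn was not tested. No marker was at 0 in all libraries.

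Some lists had higher ranges in Cre+ hearts than in loxP hearts, with overlap in all but the smooth muscle list. Fibroblast markers summed to 23452 to 35459 normalized counts in Cre+ hearts against 7783 to 29262 in loxP hearts, with 0 of 8 called. Gsn again held the largest part, at a mean of 13643 in Cre+ hearts and 10921 in loxP hearts. Endothelial markers summed to 10031 to 15342 in Cre+ hearts against 5466 to 13574 in loxP hearts, and macrophage markers to 1576 to 3908 in Cre+ hearts against 674 to 2266 in loxP hearts, with 0 of 7 called in each. At an unadjusted p under 0.05 there were 2 fibroblast, 1 endothelial and 2 macrophage markers. Log2 fold changes were above 0 for 8 of 8 fibroblast (median 0.49), 4 of 7 endothelial (0.30) and 7 of 7 macrophage markers (0.58). Smooth muscle and pericyte markers summed to 29874 to 53386 in Cre+ hearts against 12970 to 21153 in loxP hearts, most of it from Des, the desmin gene, which cardiomyocytes also express. There 2 of 10 were called, Des higher (log2 fold change 1.70, adjusted p 0.0259) and Abcc9 lower (-1.63, adjusted p 0.0477). In which cells Des and Abcc9 changed was not tested. Abcc9 stood at 268, 238, 222 and 243 normalized counts in Cre+ hearts, against 2685 in loxP replicate 4 and 482 to 817 in the other loxP hearts. When loxP replicate 4 was left out, the log2 fold change of Abcc9 was -1.34 with an adjusted p of 0.00414 and that of Des was 1.66 with an adjusted p of 0.0147. Cardiomyocyte markers summed to 186280 to 280430 in Cre+ hearts and 229600 to 355140 in loxP hearts, with overlap. Of the 8 markers 5 had log2 fold changes below 0 and 3 above, with a median of -0.43. Among them 1 was called lower, Pln, the phospholamban gene (-1.53, adjusted p 0.0333). It stood at 3096, 2871, 2161 and 2922 normalized counts in Cre+ hearts, against 17025 in loxP replicate 4 and 6017 to 8324 in the other loxP hearts, and without that library its log2 fold change was -1.35 with an adjusted p of 0.00750. Like the calls of Dbn1 and Tmod4, those of Des, Abcc9 and Pln were lost without any one of Cre+ replicates 2, 3 and 4 or loxP replicates 1, 2 and 3. Their adjusted p over left-out libraries ran from 0.0147 to 0.106 for Des, 0.00414 to 0.253 for Abcc9 and 0.00750 to 0.171 for Pln. Of 5 skeletal muscle markers 3 were called higher, Tnnt3, Tnni2 and Casq1, whichever library was left out. The skeletal muscle markers summed to 7375 to 13399 in Cre+ hearts and 7401 to 10718 in loxP hearts. Most of that sum was Ckm, at 4070 to 11539 in Cre+ hearts and 7360 to 10667 in loxP hearts. The folds of Tnnt3, Tnni2 and Casq1 were 59.4, 29.7 and 18.7, with no overlap. Of the rest, 0 of 2 lymphocyte, 0 of 5 erythroid and 0 of 6 atrial markers were called.

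The atrial markers differed most among the Cre+ hearts. They summed to 582, 19921, 42637 and 43074 normalized counts in Cre+ hearts, against 377, 1109, 7488, 137 and 415 in loxP hearts. Cre+ replicates 2, 3 and 4 were above every loxP heart, and Cre+ replicate 1 was not. All 6 log2 fold changes were above 0, with a median of 4.03, and 2 had an unadjusted p under 0.05. Myl4, the atrial essential light chain gene, had 217, 11142, 23516 and 19664 normalized counts in Cre+ hearts, against 64, 291, 3103, 10 and 82 in loxP hearts, with an adjusted p of 0.165 by limma. When Cre+ replicate 1 was left out, 3 of the 6 were called (Myl4, Myl7 and Sln), as were 695 genes in all against 228 with every library. Cre+ replicate 1 also held the lowest Cap2, Cfl2, Dstn and Wdr1 values of its group, and the highest mitochondrial share of the Cre+ hearts (52.7%). Without that library the log2 fold change was 1.01 for Dstn (adjusted p 0.0864 by limma), 0.67 for Wdr1 (0.0987) and 0.92 for Cfl1 (0.130). For Cfl2 it was 0.43 (0.433) and for Cap2 -2.03 (0.0197). The part of these lists in the values of Cfl1, Dstn and Wdr1, which other heart cells also express, was not tested.

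Genes whose levels ran most like Cap2 over the 15 libraries, among 11806 genes tested in both experiments and after centring each experiment on its mean, were Gpd1 (Pearson r 0.894), Smpd1 (0.878), Gna12 (0.865) and Tmem246 (0.851). Those most like Dstn were Tceal8 (0.926), Tgfbr1 (0.887), Pitpna (0.885) and Ggh (0.881). The groups were not removed by the centring, so part of each likeness is a shared difference between groups. The libraries of experiment B also differ widely in mitochondrial share, and how their values were scaled is unknown. The part of these in the likeness was not tested.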

How the data were processed

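Experiment A was deposited as estimated counts per gene, exon and transcript region; 26.5% of gene values above 0 were whole. Experiment B was deposited as normalized read counts, a signal whose normalization is not given in the sources used here. STAR 2.6.0c, DESeq and mm10 are named, without roles, per the submitters' processing notes; for the counter and its strand handling the answer is not given in the sources used here. The per-transcript values between 0 and 1 are an undefined score deposited by the authors. The authors' deposited table of comparisons for experiment A holds mean signal, log2 fold changes and p-values.

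Estimated counts were rounded and fitted with edgeR 4.0.16 (R 4.3.3; TMM, filterByExpr, robust quasi-likelihood test). Experiment B was fitted with limma 3.58.1 (trend, robust) on log2(value + 1), with sex as a covariate, for genes with a mean of at least 10; fold changes on that scale understate low genes. DESeq2 1.42.0 and the other settings in the closing section were alternatives, and each fit was tested on simulated data first. Exon blocks and exon lengths came from the exon rows of the deposited table, and neighbouring genes, transcripts and the alternative exon lengths from GENCODE M21 (mm10), in which 36308 of 38087 and 54165 of 54232 identifiers matched, and promoters from RefSeq, which matched 7 of the 8 genes.

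Of 16 labelled samples 15 had values here; a Cre+ heart sequenced again after the study was not analysed here. The labels number the hearts but do not say more of their source, so p-values reflect only how far these samples differ, part of which may be technical. In experiment A libraries of a group differed by more than sampling noise. In experiment B this could not be judged, since the depth behind its normalized values is unknown. The text names all 8 genes, every gene of the related lists called in either experiment, the 2 of each list with the smallest p in each experiment, and the 4 genes most like Cap2 and Dstn. Genes, lists and markers were chosen with earlier results of these data known.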

Additional observations from a re-analysis of the deposited data

Results flagged for a closer look

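Cfl2 in loxP replicate 4 of experiment B stood at 2043 normalized counts, against 778 to 1024 in the other 4 loxP hearts, a gap that exceeds Dixon's 95% limit for 5 values. This was the only such value among the 16 combinations of gene and group tested, of which chance flags about 1 in 20. The same library had the lowest correlation with its group and the highest Cap2 value of experiment B, 878.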

How the results depend on the processing

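Of 256 log2 fold changes of the 8 genes refitted under the alternatives, all but 5 kept their direction and their side of the threshold. In experiment A Cap2 and Dstn were called under every alternative run. Twf2 changed sign without CAP2 -/- replicate 1 (-0.027), CAP2 -/- replicate 3 (-0.0049) and WT replicate 3 (-0.023), with a range of -0.027 to 0.15 over left-out libraries. All genes called there numbered 220, against 402 by DESeq2, 512 with no filter and 126 to 275 with 1 library left out. In experiment B 228 genes were called, against 346 with no filter, 36 with the mitochondrial share in the fit and 39 to 695 with 1 library left out. The number of the 8 called in experiment B was 0 to 1 over left-out libraries, with Cap2 at -2.43 to -1.998. The call of Cap2 was lost without Cre+ replicate 4 (adjusted p 0.0922) and without loxP replicate 1 (0.0687). With females only it held (adjusted p 0.0336 by limma). Without loxP replicate 4, 403 genes were called. Higher and lower calls split 115 to 113 as deposited, 151 to 67 with TMM scaling, 211 to 124 with quantile scaling and 108 to 137 with nuclear totals equalized. The causes were not tested.

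Same-numbered libraries did not deviate together (r of -0.169, -0.121 and -0.0206 in experiment A and 0.24, -0.113, 0.182 and 0.0332 in experiment B), and none correlated best with its own number. With the replicate number as a block, 115 genes were called higher and 51 lower in experiment A, and 394 genes were called in experiment B.

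Over all alternatives the adjusted p of Dstn in experiment B ran from 0.0722 to 0.346. Exon lengths from GENCODE and the refits of other called genes without each library were added after seeing the data. The depth of experiment B is unknown, and the few Cap2 reads in CAP2 -/- hearts limit the values per exon.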
